A study of Mus musculus with 4 samples.

Results

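Levels of 9 long noncoding RNAs were followed in mouse liver cancer cells with and without a knockdown of Setdb1: the nuclear RNAs Malat1 and Neat1, the Myc neighbour Pvt1, and the small nucleolar RNA (snoRNA) host genes Gas5, Snhg1, Snhg3, Snhg5, Snhg8 and Snhg12. They were chosen by symbol, and each symbol matched exactly 1 of the 54838 Ensembl gene rows, so all 9 members are accounted for. The cells were Hepa1-6, a mouse hepatoma line. The control cells carried an shRNA labelled NC and are labelled Setdb1 Wild type. The knockdown cells carried an shRNA labelled Set, genotype Setdb1 knockdown, where Setdb1 is a histone methyltransferase that helps keep heterochromatin silent. Each group had 2 libraries of total RNA, numbered 1 and 2. The design text speaks of subclones, but the labels give neither the number of clones behind a group nor separate cultures for its libraries. The p-values therefore rest on library-to-library variation alone, and that variation may be technical.

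The libraries held 19513445 to 19615277 counts. Setdb1 RNA was 55.3 ± 5.85 CPM (counts scaled to the library total; SD, n = 2) in the controls and 9.77 ± 1.68 CPM in the knockdown (log2 fold change -2.49 with an SE of 0.182, adjusted p = 1.495e-04 by edgeR). Of 8 hepatocyte and hepatoma markers 6 were above 1 TPM (a level per transcript length that sums to the same total in each library) in all libraries, among them Afp and Alb, whereas Apoa1 and Ttr stayed under 1 TPM. Their summed level was 3134 to 3403 TPM in the controls and 3233 to 3519 TPM in the knockdown, but single markers went opposite ways. Alb had 429 and 432 TPM in the controls and 856 and 732 TPM in the knockdown, and Afp 532 and 588 against 714 and 728 TPM. Hnf4a had 166 and 169 TPM in the controls and 101 and 95.1 TPM in the knockdown, Apob 21.2 and 20.04 against 13.7 and 10.2 TPM, and Krt18 1367 and 1646 against 1284 and 1137 TPM. The 4 endothelial markers summed to 0.18 to 0.21 TPM in the controls and 0.44 to 0.89 TPM in the knockdown. Of 6 fibroblast and stellate markers Dcn alone was above 1 TPM, at 1227 to 1372 TPM. The 5 leukocyte and Kupffer cell markers summed to 9.25 to 9.48 TPM and 12.9 to 15.6 TPM, most of it Cd68, with Clec4f at 0 and Ptprc at 0.06 TPM or less. Control 2 differed from the other libraries in a technical value: the median gap between the length and the effective length of genes, which follows the fragment length, was 246 bases there and 260, 264 and 262 bases in control 1, knockdown 1 and knockdown 2. The mitochondrially encoded share of counts was 2.29%, 1.67%, 2.15% and 3.36% in the same order as the libraries are numbered, controls first.

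As background, a snoRNA host gene is transcribed and spliced like a messenger RNA, and the snoRNAs that guide the chemical modification of ribosomal RNA are trimmed out of its introns. The spliced remainder carries no long reading frame. In Gas5 and other hosts it begins with a 5′ terminal oligopyrimidine tract, a stretch of C and T at the start of transcription that couples translation to growth signals, and it is degraded by nonsense-mediated decay. Malat1 sits in nuclear speckles, where splicing factors gather. Neat1 is the scaffold of paraspeckles, and only its long form builds them. Pvt1 lies beside Myc and is often amplified with it in tumours.

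The start regions are shown first because most of the hosts, though not all, share sequence features there. RefSeq promoter windows (GRCm38.p6) were found for 7 of the 9 genes, with 2 start sites for Gas5. The window of the upstream Gas5 start is counted further on but not printed. The lines below run 5′ to 3′ on the strand of the gene, from 50 bases before the start site to 30 from it onward. Capitals mark the letters TATA between 40 and 16 bases before the start, and the longest run of C and T, if it has at least 5 letters, that begins between 5 bases before and 8 after the start.
Snhg8 (chr3:123508307-123508386, minus strand): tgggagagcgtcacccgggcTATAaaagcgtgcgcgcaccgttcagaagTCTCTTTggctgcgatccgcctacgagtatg
Snhg1 (chr19:8723437-8723516, plus strand): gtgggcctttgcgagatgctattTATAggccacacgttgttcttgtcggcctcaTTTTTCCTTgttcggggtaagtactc
Gas5 downstream start (chr1:161035116-161035195, plus strand): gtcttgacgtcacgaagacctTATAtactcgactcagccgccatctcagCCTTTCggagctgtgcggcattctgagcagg
Snhg12 (chr4:132308628-132308707, plus strand): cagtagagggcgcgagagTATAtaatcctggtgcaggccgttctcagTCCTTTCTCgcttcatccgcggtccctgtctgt
Snhg5 (chr9:88522868-88522947, minus strand): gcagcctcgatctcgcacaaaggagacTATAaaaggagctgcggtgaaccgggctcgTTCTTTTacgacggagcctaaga
Snhg3 (chr4:132353657-132353736, minus strand): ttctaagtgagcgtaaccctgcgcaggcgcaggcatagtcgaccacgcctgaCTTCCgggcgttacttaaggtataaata
Malat1 (chr19:5802643-5802722, minus strand): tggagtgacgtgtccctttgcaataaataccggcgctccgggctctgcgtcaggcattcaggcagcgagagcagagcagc

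Both features stood in 5 of the 8 member windows: in Snhg1, Snhg5, Snhg8, Snhg12 and at the downstream start of Gas5. Of all 32851 RefSeq windows, 1.68% held both, 5.91% held TATA and 25.5% held the run, searched in the same places and on the same strand. These search windows were chosen after the sequences of the members had been looked at, so the shares are a description. The run was TCTCTTT in Snhg8, CCTTTC in Gas5, TCCTTTCTC in Snhg12, TTTTTCCTT in Snhg1 and TTCTTTT in Snhg5. Snhg3 had a run of 5 letters without TATA in that place, and Malat1 and the upstream start of Gas5 had neither.

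In the GRCm38 annotation (GENCODE M21) Gas5 lies on the plus strand of chromosome 1 (161034422 to 161038539) and holds 10 snoRNA entries at 9 places. Snhg1 (chromosome 19, 8723475 to 8726443, plus strand) holds 8, Snhg12 (chromosome 4, 132308623 to 132311024, plus strand) 5 entries at 4 places, Snhg3 (chromosome 4, 132348014 to 132353686, minus strand) 2, Snhg5 (chromosome 9, 88521050 to 88522929, minus strand) 2 and Snhg8 (chromosome 3, 123507552 to 123508404, minus strand) 1. All 28 entries lie on the strand of the host, inside an intron of at least 1 of its transcripts. The snoRNAs themselves were barely counted. Of the 28 entries, 26 were at 0 in all 4 libraries, and the other 2, Snora73a and Snora73b in Snhg3, held 3.49 estimated counts over all libraries together. The values below are those of the host RNAs and hold no measure of the snoRNAs.

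The 9 RNAs covered a wide range of levels, and the nuclear RNAs stood at its lower end. Snhg8, host of the H/ACA snoRNA Snora24, was highest with 189 and 261 TPM in controls 1 and 2 and 180 and 160 TPM in knockdown 1 and 2. Its libraries all lay above those of every other member. Snhg1, which hosts a row of box C/D snoRNAs, followed with 85.6 and 88.9 TPM in the controls and 72.3 and 61.8 TPM in the knockdown. Gas5 had 34.6, 80.1, 43.9 and 41.7 TPM in control 1, control 2, knockdown 1 and knockdown 2, and its control 2 library lay above both knockdown libraries of Snhg1. Snhg3 came next with a mean of 34.6 TPM over the 4 libraries, then Snhg12 with 22.6, Pvt1 with 22.4 and Snhg5 with 14.8 TPM.

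Malat1 (chromosome 19, 5795690 to 5802672, minus strand) had 11.2, 22.1, 6.93 and 11.6 TPM in control 1, control 2, knockdown 1 and knockdown 2. This placed it above 44.2%, 59.3%, 34.7% and 45.5% of all tested genes in the same libraries, near the middle of the expressed genes. Neat1 (chromosome 19, 5824708 to 5845478, minus strand) was lowest of the 9 with 5.43, 4.67, 5.99 and 4.82 TPM, above 26.7% to 31.8% of tested genes. Malat1 and Neat1 were therefore not among the highest RNAs in these libraries, although both are known as abundant in many tissues. Whether the libraries were made by poly(A) selection or by removal of ribosomal RNA is not given in the sources used. Malat1 and the long form of Neat1 lack a poly(A) tail, so their measured level can depend on that step. Snhg8 was the only member above 90% of tested genes in every library, at 93.0% to 96.0%. In the order of mean level, neighbours overlapped in their libraries all along the row from Snhg1 to Malat1. The steps without overlap were those from Snhg8 to Snhg1 and from Malat1 to Neat1. All 9 together made up 0.0369% to 0.0554% of the summed TPM of a library.

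**Figure D1:**
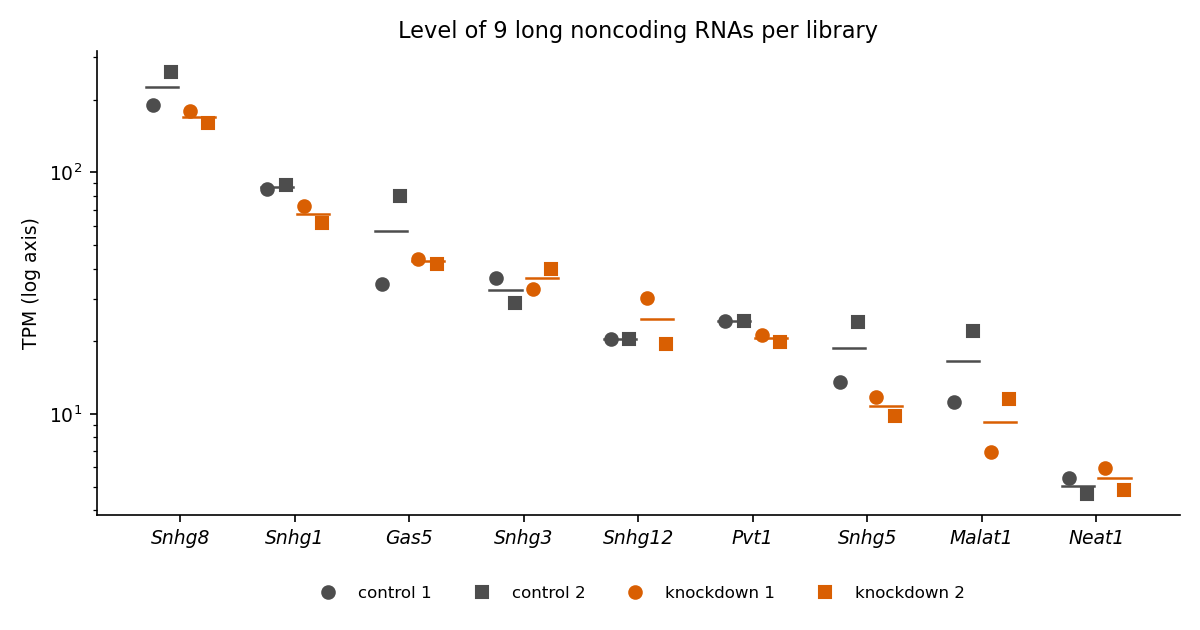
Level of the 9 long noncoding RNAs in TPM (log axis) in each of the 4 libraries, ordered by mean level. Circles are replicate 1, squares replicate 2, grey control, orange knockdown, and horizontal lines are group means. Snhg8 stands above all others with 160 to 261 TPM, and Neat1 lies at the bottom with 4.67 to 5.99 TPM.

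The comparison between groups asks whether these RNAs differ when Setdb1 is reduced. All 9 passed the filter on low counts, and 0 of them passed the test at an adjusted p under 0.05, where 5.96% of the 12821 tested genes did (4.2% higher and 1.76% lower in the knockdown, edgeR's quasi-likelihood test). DESeq2 and limma on log2(TPM + 1) also called 0 of the 9. An unadjusted p under 0.05 was reached by 3 members, against 21.3% of all tested genes. The log2 fold change was below 0 in 6 members (50.5% of tested genes) and above 0 in 3, with a median of -0.44 against -0.0052 over all tested genes. The groups did not overlap in CPM in 5 members (51.9% of tested genes), with both knockdown libraries below both controls in 4 (26.5% of tested genes) and above them in 1 (25.4%). In TPM they did not overlap in 4 members (51.6%), with the knockdown below in all 4 (30.2%) and above in 0 (21.4%). Values with 1 library left out, given below, compare a group of 1 library with a group of 2. The lone library is then assumed to vary like the other group, which alone supplies the spread between replicates, so a pass there is no replicated result. In a bulk sample, fewer cells that make an RNA and less of it per cell cannot be told apart.

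Snhg5, host of Snord50a and Snord50b, had the largest difference by edgeR. On log2(TPM + 1) by limma the value was -0.70 for Snhg5 and -0.75 for Malat1. The CPM of Snhg5 was 7.70 and 13.9 in controls 1 and 2 and 6.88 and 5.67 in knockdown 1 and 2. Both knockdown libraries lay below both controls, but control 1 was closer to the knockdown than to control 2. The log2 fold change was -0.77 (SE 0.286, 95% interval -1.41 to -0.13, unadjusted p = 0.0238, adjusted p = 0.157). Leaving out control 2 gave -0.30 (adjusted p = 0.634), and leaving out control 1 gave -1.12, which passed (adjusted p = 0.00314).

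Malat1 had 40.8 and 70.7 CPM in the controls and 31.3 and 43.0 CPM in the knockdown, that is 55.7 ± 21.1 against 37.1 ± 8.33 CPM (SD, n = 2 per group). The groups overlapped, since knockdown 2 was above control 1. The log2 fold change was -0.57 (SE 0.249, 95% interval -1.12 to -0.01, adjusted p = 0.228). Leaving out control 2 gave -0.14 (adjusted p = 0.807) and leaving out control 1 gave -0.90 (adjusted p = 0.00349). The value was -0.35 with knockdown 1 left out (adjusted p = 0.410) and -0.82 with knockdown 2 left out, which passed (adjusted p = 0.0103).

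Gas5, which accumulates in cells that stop growing, had 10.3 and 25.0 CPM in the controls and 12.1 and 12.2 CPM in the knockdown. Both knockdown libraries lay between the controls and differed from each other far less than the controls did. The log2 fold change of -0.52 (SE 0.334, adjusted p = 0.413) changed its sign without control 2, to 0.24 (adjusted p = 0.683), and with control 1 left out it was -1.01 (adjusted p = 0.00242).

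Snhg1 was steadier. It had 26.9 and 33.7 CPM in the controls and 22.3 and 21.6 CPM in the knockdown, with no overlap and a log2 fold change of -0.45 (SE 0.169, 95% interval -0.83 to -0.07, adjusted p = 0.163). Snhg8 had 30.3 and 45.1 CPM in the controls and 29.3 and 25.8 CPM in the knockdown. Its groups did not overlap either, though control 1 and knockdown 1 were close, and its log2 fold change was -0.44 (SE 0.198, adjusted p = 0.245). Without control 2 these values were -0.30 for Snhg1 (adjusted p = 0.499) and -0.14 for Snhg8 (adjusted p = 0.798). Without control 1, Snhg8 had a log2 fold change of -0.68 and passed (adjusted p = 0.0203).

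In the remaining hosts the groups overlapped. Snhg3 had 5.15 and 4.51 CPM in the controls and 4.69 and 5.98 CPM in the knockdown (log2 fold change 0.16, 95% interval -0.39 to 0.71, adjusted p = 0.767), and Snhg12 had 7.30 and 8.30 CPM against 10.5 and 6.90 CPM (0.17, 95% interval -0.38 to 0.71, adjusted p = 0.748). Both rest on few counts, 87.8 to 117 per library for Snhg3 and 135 to 205 for Snhg12. Snhg3 had fractional counts in 4 libraries, so some of its reads were divided among features and its value is less certain. The messenger RNA gene Rcc1, which overlaps it on the same strand, had whole counts: 2016 and 1631 in the controls, 1922 and 2075 in the knockdown. Snhg3 also overlaps Gm17300 on the other strand, which had fractional counts too: 20.72 and 19.44 in the controls, 20.44 and 15.06 in the knockdown. Snora73b, inside Snhg3, had 0.76 and 0.73 in the controls. The strand setting of the counting is not given. In each library the counts of Snhg3, Gm17300 and Snora73b added up to a whole number. Some reads were therefore divided between Snhg3 and Gm17300, although these lie on opposite strands. How far this moves the value of Snhg3 was not tested.

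Pvt1 (chromosome 15, 62037986 to 62378096, plus strand) differed little between replicates. It had 21.3 and 22.3 CPM in the controls and 19.3 and 19.98 CPM in the knockdown. Both knockdown libraries were lower, by a small step (log2 fold change -0.14, SE 0.163, 95% interval -0.50 to 0.23, adjusted p = 0.683). This interval runs from 0.705 to 1.17 times the control level. A pair of position-named loci of the deposited tables overlap Pvt1, and both held 0 counts in all libraries. Pvt1 had fractional counts in 2 libraries, 436.36 in control 2 and 391.35 in knockdown 2. The annotated entry Gm27913, inside Pvt1 on the same strand, had 1.64 and 0.65 counts there and 0 in control 1 and knockdown 1.

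Neat1 was the only member with both knockdown libraries above both controls in CPM, at 17.4 and 15.9 against 14.4 and 12.6 CPM. Its log2 fold change was 0.32 (SE 0.184, 95% interval -0.09 to 0.73, adjusted p = 0.351). On the TPM scale, which divides by the effective length, its groups overlapped and the difference was 0.08 on log2(TPM + 1) (adjusted p = 0.865).

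**Figure D2:**
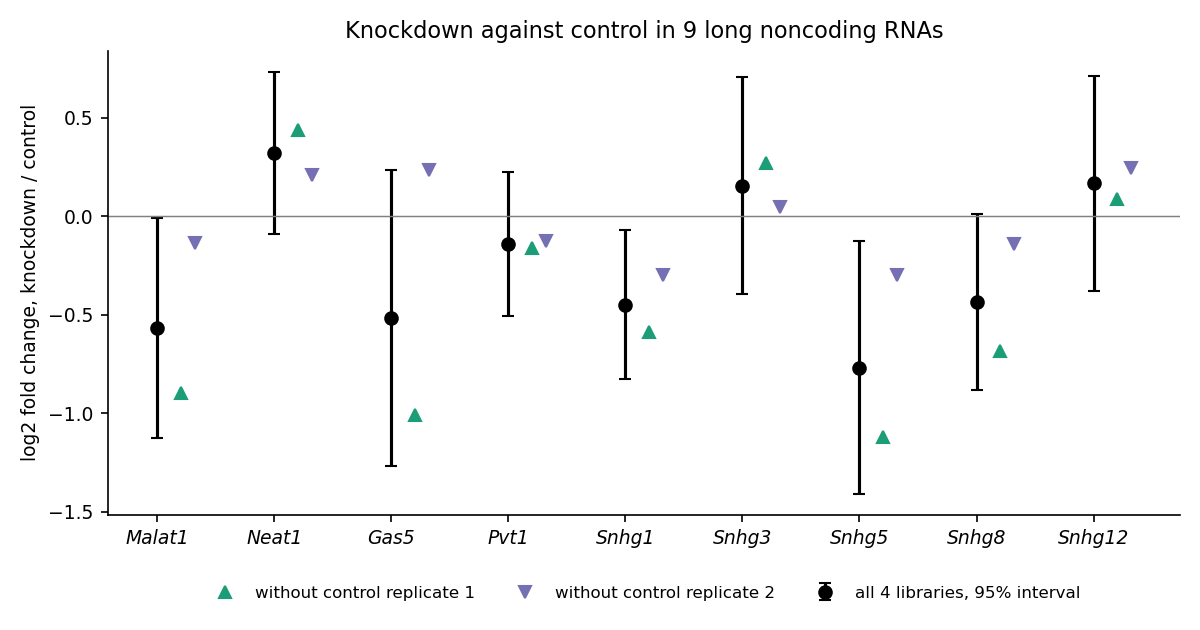
Log2 fold change of the 9 RNAs, knockdown over control, from edgeR (black points with 95% intervals), and the same value without control 1 (green, pointing up) and without control 2 (violet, pointing down). For Gas5 the value goes from -1.01 without control 1 to 0.24 without control 2, while for Pvt1 the values stay between -0.16 and -0.12.

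Control 2 stood apart for several members. It was the highest of the 4 libraries for 6 of the 9 members in CPM and for 5 in TPM. The share of all tested genes that were highest in control 2 was not counted. In CPM, control 2 lay above control 1 for 7 of the 9 members and for 7091 of the 12821 tested genes. Gas5 had 2.43 times as many CPM in control 2 as in control 1, a ratio reached or passed by 1.46% of tested genes. The ratio was 1.81 for Snhg5 (3.60% of tested genes), 1.73 for Malat1 (4.31%), 1.49 for Snhg8 (8.36%), 1.25 for Snhg1 and 1.14 for Snhg12. It was 1.05 for Pvt1, 0.875 for Snhg3 and 0.873 for Neat1. Over the 9 the median log2 difference between control 2 and control 1 was 0.32, and over all tested genes it was 0.04. The 9 other snoRNA host long noncoding RNAs that were tested, with the microRNA host Mir17hg among them, had a median of -0.10, with 4 of 9 above 0. The 24 protein-coding hosts had a median of 0.17, with 19 above 0. The part of the shorter fragments of control 2 in these values was not tested. Tested genes with a length of up to 500 bases, the class of Snhg3 and Snhg8, had a median log2 difference of 0.01 between the controls. It was -0.019 for lengths over 500 and up to 1000 bases (Gas5, Snhg1, Snhg5 and Snhg12) and 0.0056 up to 2000 bases (Pvt1). Longer genes had 0.047 up to 4000 bases (Neat1) and 0.089 above that (Malat1).

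**Figure D3:**
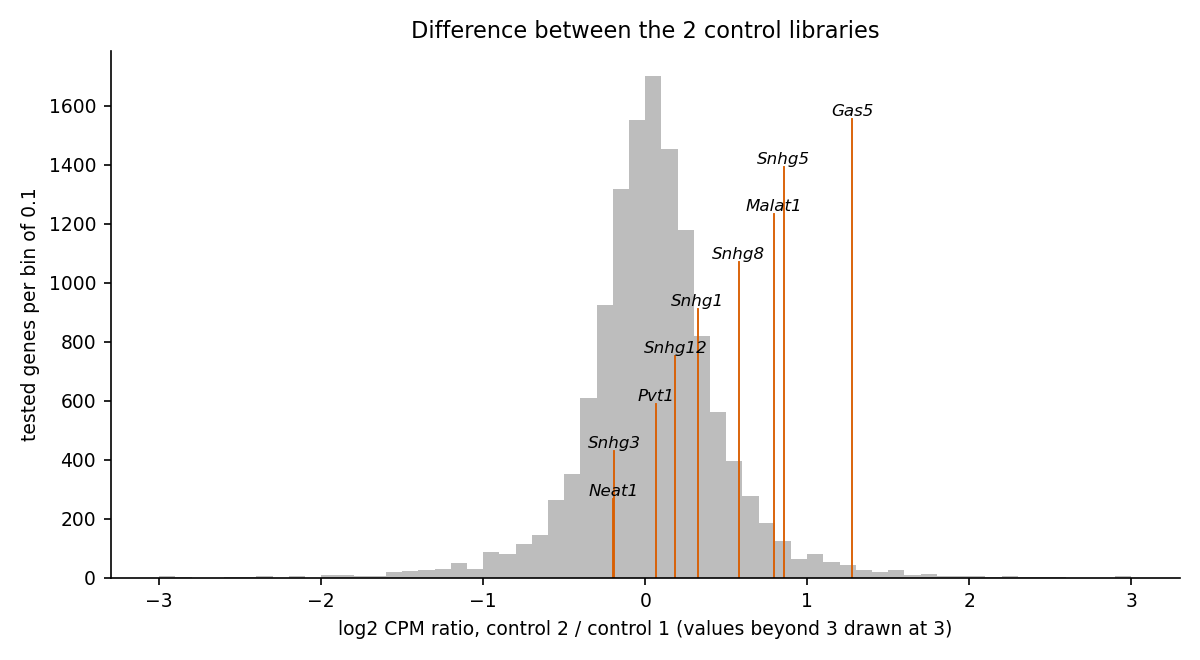
Distribution of the log2 CPM ratio of control 2 to control 1 over tested genes with counts in both (grey, bins of 0.1), with the 9 RNAs marked by orange lines whose height only separates the labels. Gas5, Snhg5 and Malat1 lie in the right tail with ratios of 2.43, 1.81 and 1.73.

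The length that RSEM gives a gene is the mean length of its transcripts, weighted by their estimated shares, so it moves when the mix of transcripts moves. It varied between libraries for all 9 members. The groups did not overlap in 4 of them (36% of the tested genes with a varying length), 1 longer and 3 shorter in the knockdown, where 19% and 17.1% of those 10238 genes did so. The lengths are given as a description and were not tested.

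Neat1 is the member where length has a known meaning. Its annotated transcripts run from 711 to 20771 bases, and the short polyadenylated form of 3004 bases shares its beginning with the long form that builds paraspeckles. The last 90 bases of both forms (GENCODE M21 transcripts, 5′ to 3′) show how they end. Capitals mark the polyadenylation signal AATAAA in the short form, and a U-rich stretch and the final A run in the long form, whose end is known to be cut by RNase P and held in a triple helix instead of a poly(A) tail.
Neat1 short form, Neat1-202: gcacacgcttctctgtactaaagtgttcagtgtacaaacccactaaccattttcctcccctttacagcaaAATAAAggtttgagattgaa
Neat1 long form, Neat1-201: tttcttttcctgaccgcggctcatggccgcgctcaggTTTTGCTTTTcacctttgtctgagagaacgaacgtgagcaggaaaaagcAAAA

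AATAAA stood in the last 60 bases of 31.5% of 14985 long noncoding transcripts. The mean length of Neat1 was 3603 and 3701 bases in the controls and 3833 and 4326 bases in the knockdown. From the transcript lengths alone, the long form made up at least 3.37% and at most 14.4% of Neat1 molecules in control 1, 3.92% to 14.9% in control 2, 4.67% to 15.6% in knockdown 1 and 7.44% to 18.0% in knockdown 2. The ranges overlap widely and do not resolve a difference in the share of the long form. They also depend on how RSEM divided reads between overlapping transcripts.

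Malat1 had mean lengths of 4870 and 4355 bases in the controls and 5790 and 4825 bases in the knockdown. The groups overlapped, and the library with the lowest Malat1 level, knockdown 1, had the greatest length. Gas5, with 25 annotated transcripts, was shorter in the knockdown, at 601 and 620 bases against 635 and 646 bases, and so was Snhg12, at 689 and 699 against 712 and 768 bases. Snhg5 lengths of 980 and 993 bases in the controls and 979.7 and 974 bases in the knockdown gave a ratio of means of 0.990. Snhg1, Snhg3, Snhg8 and Pvt1 overlapped between the groups.

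**Figure D4:**
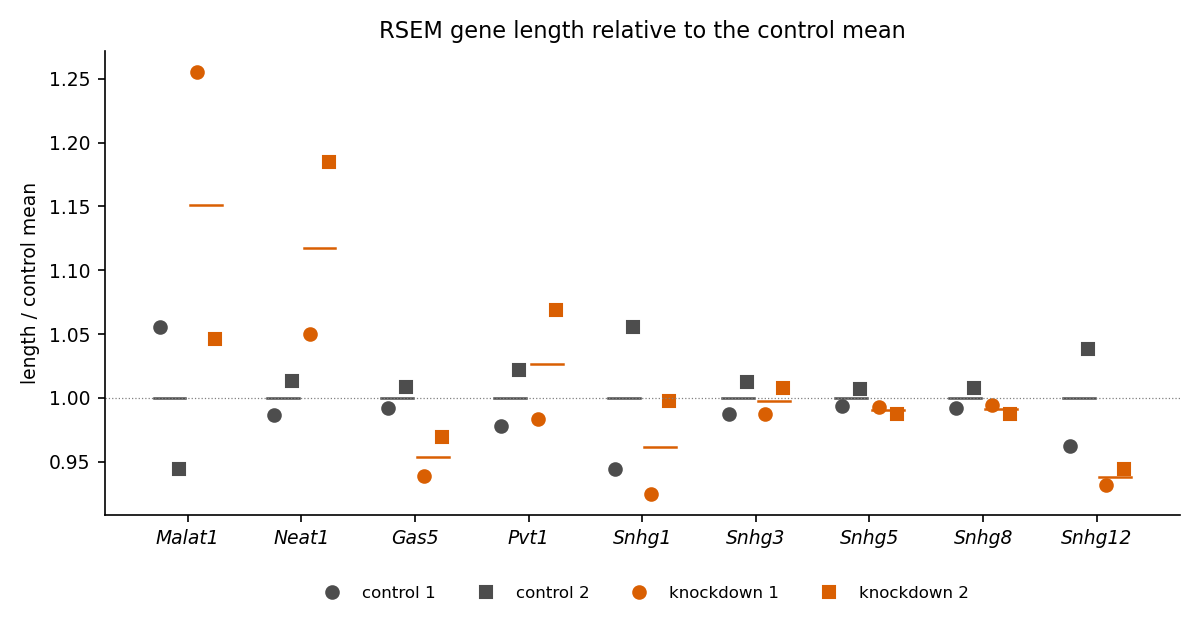
RSEM's transcript-weighted length of each RNA in each library, divided by the mean of the 2 control libraries (circles replicate 1, squares replicate 2, grey control, orange knockdown, lines group means). Neat1 was longer in both knockdown libraries, with a ratio of means of 1.12, and Gas5 and Snhg12 were shorter, with ratios of 0.954 and 0.938.

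Genes around the members were read from the same fit. The nearest tested protein-coding genes on either side and those overlapping a member made up 17 genes, of which 1 was higher, 0 lower and 16 neither. Over all tested genes 4.2% were called higher and 1.76% lower. Frmd8, 4.22 kb from Neat1, had a log2 fold change of -0.28 (adjusted p = 0.260). Myc, the growth transcription factor 47.6 kb before Pvt1, had 275 and 256 CPM in the controls and 218 and 218 CPM in the knockdown (log2 fold change -0.27, SE 0.129, adjusted p = 0.260). Both knockdown libraries were below both controls, as for Pvt1, and neither gene passed. Slc3a2, the amino acid transporter subunit that starts 105 bases from Snhg1 on the other strand, had a log2 fold change of 0.14 (adjusted p = 0.673). Zbtb37, which overlaps the start of Gas5 on the other strand, had 0.01 (adjusted p = 0.985), and Rcc1, which contains most of Snhg3, had 0.14 (adjusted p = 0.644). Only Gsdmc, a gasdermin gene 1398 kb beyond Pvt1, was called: it had 0 counts in both controls and 12 and 10.8 in knockdown 1 and 2, at least 7.59-fold higher against a floor of 3 counts over the control group (edgeR adjusted p = 0.0182). By limma on log2(TPM + 1) its adjusted p was 0.116. Gsdmc passed the filter on low counts, and so entered the 17 genes, only through the knockdown libraries, where it is high. Without that filter its edgeR adjusted p was 0.233. Its call is given as a description.

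Other host RNAs also held no gene called by the edgeR fit on group alone with all libraries. Of 16 other snoRNA host long noncoding RNAs on the list, 9 were tested, and 0 rose, 0 fell and 9 did not pass. Their median log2 fold change was -0.25, and 3 had an unadjusted p under 0.05 (21.3% of all tested genes). DESeq2 called 0 of them as well. Both knockdown libraries lay below both controls in CPM in 6 of the 9 (26.5% of tested genes) and above them in 2 (25.4%). Snhg17 had 28.7 and 33.7 CPM in the controls and 23.1 and 21.7 CPM in the knockdown (log2 fold change -0.46, adjusted p = 0.135). Snhg15 had 19.1 and 16.3 CPM against 12.3 and 13.2 CPM (-0.46, adjusted p = 0.193). Zfas1, a host expressed at 55.5 to 65.4 CPM, had -0.12 (adjusted p = 0.662). Snhg20 went the other way, with 9.54 and 8.87 CPM in the controls and 13.8 and 15.1 CPM in the knockdown (0.66, SE 0.191, adjusted p = 0.0780), and limma on log2(TPM + 1) called it. The rest were Epb41l4aos (-0.26), Mir17hg (-0.78), Snhg6 (-0.25), Dancr (0.28) and Snhg10 (0.84), with adjusted p-values from 0.389 to 0.623. Mir17hg is a microRNA host gene, not a snoRNA host, and had 0.41 to 1.02 CPM. The counts and the median of this list include it. The hosts differed in sign among themselves, and none of these genes was called by the edgeR fit on group alone with all libraries. Some alternative edgeR fits called Snhg20 higher.

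Of 31 other well-known long noncoding RNAs, 12 were tested and 0 were called by edgeR, with a median of 0.03. An unadjusted p under 0.05 was reached by 2 of them, and by 21.3% of all tested genes. Tug1, at 41.6 to 57.4 TPM, had a log2 fold change of -0.20 (adjusted p = 0.489), and 2900097C17Rik, the mouse Norad gene, had 0.02 at 79.9 to 95.2 TPM (adjusted p = 0.960). Both overlapped between the groups. The 2 at an unadjusted p under 0.05 were Xist, the RNA of X inactivation, with 60.1 and 84.7 CPM in the controls and 50.7 and 52.1 CPM in the knockdown (log2 fold change -0.48, adjusted p = 0.144), and Mir22hg, with 4.44 and 2.72 against 1.99 and 1.99 CPM (-0.83, adjusted p = 0.178). Of the 12, both knockdown libraries lay below both controls in CPM in 3 (26.5% of tested genes) and above them in 1 (25.4%). Over all 625 tested long noncoding RNAs 30 rose and 3 fell, with a median of 0.12. The shares over all tested genes were 4.2% and 1.76%. Whether the members differ from the class of long noncoding RNAs was not tested.

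Among the protein partners 1 gene was called. Of all tested genes, 5.96% were called, 50.5% had a log2 fold change below 0 and 21.3% had an unadjusted p under 0.05. Of 24 tested protein-coding snoRNA hosts, which include many ribosomal protein genes, 0 rose, 0 fell and 24 did not pass by edgeR (median -0.05, 13 below 0, 1 at an unadjusted p under 0.05). Of 18 tested snoRNP proteins, the enzymes and chaperones that assemble snoRNA particles, 0 rose, 0 fell and 18 did not pass (median -0.16, 15 below 0, 2 at an unadjusted p under 0.05). Of 15 paraspeckle proteins 0 rose, 0 fell and 15 did not pass (median -0.14, 14 below 0, 0 at an unadjusted p under 0.05), and of 16 nonsense-mediated decay factors 0 rose, 0 fell and 16 did not pass (median -0.21, 15 below 0, 3 at an unadjusted p under 0.05). The list of Myc and its partners had 0 called of 10 (median -0.08, 7 below 0, 0 at an unadjusted p under 0.05). Among 12 nuclear speckle proteins 0 rose, 1 fell and 11 did not pass (median -0.35, 8 below 0, 4 at an unadjusted p under 0.05). The one that fell was Clk1, a kinase that phosphorylates splicing factors of the SR family. It went from 59.5 and 53.8 CPM in the controls to 37.3 and 31.6 CPM in the knockdown (log2 fold change -0.70, SE 0.155, edgeR adjusted p = 0.0293). With knockdown 2 left out it did not pass (adjusted p = 0.107), nor without the filter on low counts (adjusted p = 0.222).

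**Figure D5:**
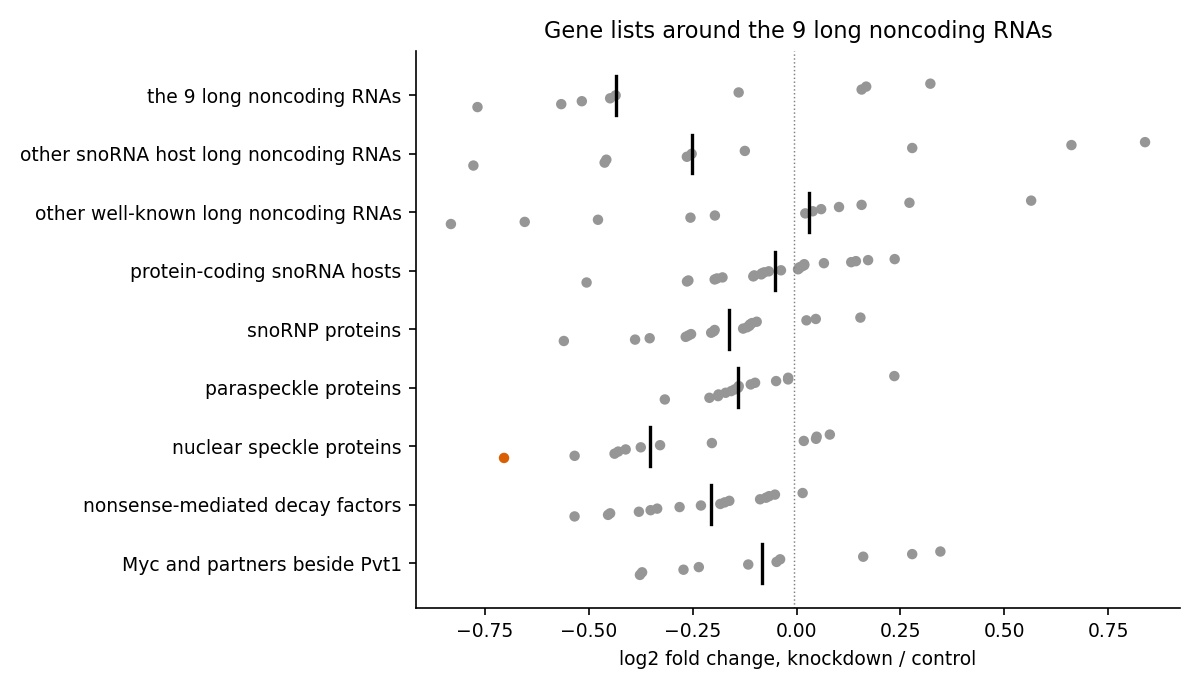
Log2 fold change, knockdown over control, of every tested gene on 9 lists (points; orange where the adjusted p was under 0.05), with the median of each list as a black bar and the median of all tested genes as a dotted line. Clk1 is the only coloured point, at -0.70, and the medians run from -0.44 for the 9 long noncoding RNAs to 0.03 for the other well-known long noncoding RNAs.

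Profiles over the 4 libraries were compared with 9635 protein-coding genes of at least 5 CPM by the root mean square difference of centred log2 CPM. Nearest to Malat1 were Lysmd3 (0.0581), Arl13b (0.0807) and Zfp184 (0.121). Nearest to Gas5 were Rbm41 (0.0698), 2810021J22Rik (0.112) and Ier5l (0.138), each with its highest level in control 2 as well: Ier5l had 46.0 CPM there and 22.5 to 27.4 CPM elsewhere. Nearest to the mean profile of the 5 Snhg members were Atp5e (0.00935), Dnttip2 (0.0102) and Arhgef25 (0.0122). The names are a description of these 4 libraries.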

How the data were processed

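The submitters' processing notes list the tools FastQC, STAR, RSEM and DESeq2, and both GRCm38 and mm10 as build names. Libraries were made from total RNA with a directional kit, per the labels' protocols. Tool versions, the RNA selection step, the strand setting of the counting and the annotation release: not given in the sources used here. Per the file headers, each deposited table holds RSEM's expected counts, TPM, FPKM, length and effective length per gene. The expected counts deposited by the authors divide shared reads among features and were rounded here. The TPM values deposited by the authors are scaled per effective length to the same sum in each library. The deposited FPKM values were not used. The lengths are deposited by the authors in bases.

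The test was edgeR's quasi-likelihood test (edgeR 4.0.16, R 4.3.3, legacy setting off, TMM, filterByExpr, group alone), with Benjamini-Hochberg adjustment over 12821 genes and a threshold of 0.05. Library sizes were sums over all rows, 115821 per file. SEs come from the F statistic, and 95% intervals from the fit's degrees of freedom. CPM are rounded counts scaled to the library total, without TMM. Coordinates come from GENCODE M21, which matched 54809 gene identifiers. No list test was run. The members, lists and tests were chosen with earlier results of these data known. Named besides the members are Setdb1, some of the flanking genes (1 of them is not reported here), called genes of each list and the nearest profiles; the other tested snoRNA hosts, Tug1, 2900097C17Rik, Xist and Mir22hg were named after their values were seen. DESeq2 1.42.0 and limma 3.58.1 served as alternatives. The fit was tested on simulated data. The motif windows in promoters were set after the members' sequences had been seen.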

Additional observations from a re-analysis of the deposited data

How the results depend on the processing

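The 9 long noncoding RNAs were refitted under 15 alternatives each, 2 of them (the crossed block and edgeR's legacy fit) chosen after seeing the data. Of the 135 values, 124 kept their direction and stayed uncalled, 8 passed the threshold and 3 changed sign. The values that changed sign were Gas5 without control 2 (0.24), Snhg3 without knockdown 2 (-0.033) and Snhg12 without knockdown 1 (-0.16). Leaving out each library in turn, which leaves 1 library in a group and takes the spread from the other, gave log2 fold changes of -1.01 to 0.24 for Gas5, -0.033 to 0.32 for Snhg3 and -0.16 to 0.43 for Snhg12, and 0 to 4 members lower, 0 to 1 other snoRNA hosts higher, 543 to 982 genes higher and 197 to 695 genes lower, against 538 and 226 with all libraries. The 4 members called lower without control 1 were Malat1, Gas5, Snhg5 and Snhg8, and Malat1 alone was called without knockdown 2. Neat1, Pvt1, Snhg3 and Snhg12 were not called under any alternative.

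Without a filter on low counts edgeR called 0 genes higher and 0 lower, with 3379 at an unadjusted p under 0.05. Limma called 245 higher and 89 lower on log2(TPM + 1) and 242 and 85 on log2(TPM + 0.1), with 1 other snoRNA host higher in both. The cause was not tested. The replicate number as a block gave 584 genes higher and 278 lower and 0 members called. The labels do not say that equal numbers pair libraries, and the deviations of same-numbered libraries correlated at -0.183 across genes. With the numbers crossed, 1352 genes were higher and 987 lower, with 3 members lower and 1 other snoRNA host in each direction. Leaving the 9 members out of the scaling changed no count. The SE of the log2 fold change was 0.334 for Gas5, 0.286 for Snhg5 and 0.249 for Malat1, and 0.246 for Snhg3 and 0.244 for Snhg12, which rest on few counts.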
